A study of Mus musculus with 28 samples.

Results

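The 10 genes described here mark the decision between cell division and arrest and were followed in sorted cells of the mouse thyroid and salivary glands: the CDK inhibitors Cdkn1a, Cdkn1b and Cdkn1c, the growth arrest genes Gas1, Btg1 and Btg2, the D-type cyclins Ccnd1 and Ccnd2, and the proliferation markers Mki67 and Top2a. They were found by Ensembl identifier and symbol in all 28 count tables, 10 of 47643 gene rows, and held 4055 of the 2263832 reads in genes. The cells were sorted fresh from H2B-GFP mice, in which a GFP-tagged histone is diluted at each division once its supply ends. GFP+ cells are those that kept the label and GFP− cells those without it. Whether GFP− cells lost the label by division or never carried it is not known from the labels. Thyroid cells were sorted at 3, 6 and 9 months of age into GFP+ and GFP− fractions, with 4, 4 and 3 libraries of each, and salivary gland cells at 9 months with 3 libraries of each fraction. All groups carry the H2B-GFP allele; the labels give neither its promoter, nor a labelling schedule, nor a strain, and do not say whether replicates came from separate animals, so that each p-value speaks of the spread among libraries, which may be technical. Each library was a 3′ mRNA sequencing library, which reads the tail end of a polyadenylated transcript, and levels are given as CPM, the reads of a gene scaled to the reads in genes of its library.

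Cells that leave the cycle reversibly hold the D cyclins and their kinases in check. Cdkn1a (p21) and Cdkn1b (p27) block cyclin-dependent kinases, Cdkn1a as a target of p53 and Cdkn1b as a brake in resting cells, and Cdkn1c (p57) is an imprinted inhibitor of the same family known from quiescent stem cells. Gas1 is a membrane protein first found in growth-arrested fibroblasts, and Btg1 and Btg2 are antiproliferative factors that recruit the machinery of mRNA deadenylation. Ccnd1 and Ccnd2 carry mitogen signals into G1, while Mki67 coats chromosomes in cycling cells and Top2a untangles DNA before and during mitosis, so both transcripts are close to absent in resting cells. The comparison of fractions therefore asks whether retention of the label goes with more transcripts of arrest and fewer of division.

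The promoters of the gene that differed between the fractions, Gas1, and of the pair that was all but undetected, Mki67 and Top2a, are shown from RefSeq on build GRCm38.p6 as 300 bases around the annotated start, 5′ to 3′ on the strand of the gene, which is the minus strand for each of them. They lie at chr13:60177486-60177785, chr7:135716330-135716629 and chr11:99024140-99024439. Capitals mark CCAAT boxes and TTTGAA, the cell cycle homology region that is bound by repressor complexes in resting cells, either in these letters or as the reverse complements ATTGG and TTCAAA.
Gas1: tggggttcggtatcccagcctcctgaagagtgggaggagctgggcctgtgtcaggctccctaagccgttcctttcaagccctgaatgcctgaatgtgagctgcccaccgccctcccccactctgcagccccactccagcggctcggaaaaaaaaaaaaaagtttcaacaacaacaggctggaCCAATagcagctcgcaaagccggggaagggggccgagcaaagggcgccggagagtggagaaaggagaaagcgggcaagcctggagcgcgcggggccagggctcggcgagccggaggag
Mki67: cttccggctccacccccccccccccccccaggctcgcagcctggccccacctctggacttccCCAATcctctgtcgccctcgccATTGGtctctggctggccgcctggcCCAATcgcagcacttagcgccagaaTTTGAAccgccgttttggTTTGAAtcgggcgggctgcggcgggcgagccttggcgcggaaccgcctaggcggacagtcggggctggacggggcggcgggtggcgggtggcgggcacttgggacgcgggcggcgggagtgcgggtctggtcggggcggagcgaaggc
Top2a: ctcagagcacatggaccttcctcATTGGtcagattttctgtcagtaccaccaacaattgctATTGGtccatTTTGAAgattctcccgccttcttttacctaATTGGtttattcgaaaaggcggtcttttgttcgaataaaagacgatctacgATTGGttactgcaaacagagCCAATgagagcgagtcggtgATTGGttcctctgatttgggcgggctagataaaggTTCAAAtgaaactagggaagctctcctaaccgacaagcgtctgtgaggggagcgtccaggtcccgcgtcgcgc
The Mki67 window held 2 TTTGAA matches and 3 CCAAT boxes, the Top2a window 2 and 6, and the Gas1 window 0 and 1. Of 32851 mouse promoter windows of the same length, searched on both strands, 17.9% held TTTGAA and 37.4% held CCAAT. None of the other members with a window (7 of the 10 members had one) held TTTGAA. A match is a run of letters and says nothing of binding in these cells.

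Depth decided what could be seen. Libraries held 507 to 209091 reads in genes, and 6 held fewer than 10000: GFP+ thyroid at 3 months replicates 1 and 2 (1562 and 5896 reads), GFP+ thyroid at 6 months replicate 4 (507), GFP− thyroid at 6 months replicate 2 (4845), GFP− thyroid at 9 months replicate 1 (5884) and GFP+ salivary replicate 1 (993). A gene with 0 reads in a library could still have been present at up to 14.3 to 5917 CPM, taking 3 reads as the limit that a count of 0 allows. The glands carried their markers. A list of 15 salivary acinar and duct genes, of which Muc10 matched no row, was summed over pooled libraries. Its sum reached 453 CPM in GFP+ thyroid, 190 CPM in GFP− thyroid and 58887 CPM in salivary libraries. Tg, the thyroid hormone precursor, had 1687, 4951 and 11 reads in GFP+ thyroid, GFP− thyroid and salivary libraries. In thyroid 6 members had enough reads for a test (Cdkn1a, Gas1, Btg1, Btg2, Ccnd1 and Ccnd2), and 4 did not (Cdkn1b, Cdkn1c, Mki67 and Top2a). In bulk libraries, fewer cells of a type and less RNA per cell cannot be told apart.

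**Figure D1:**
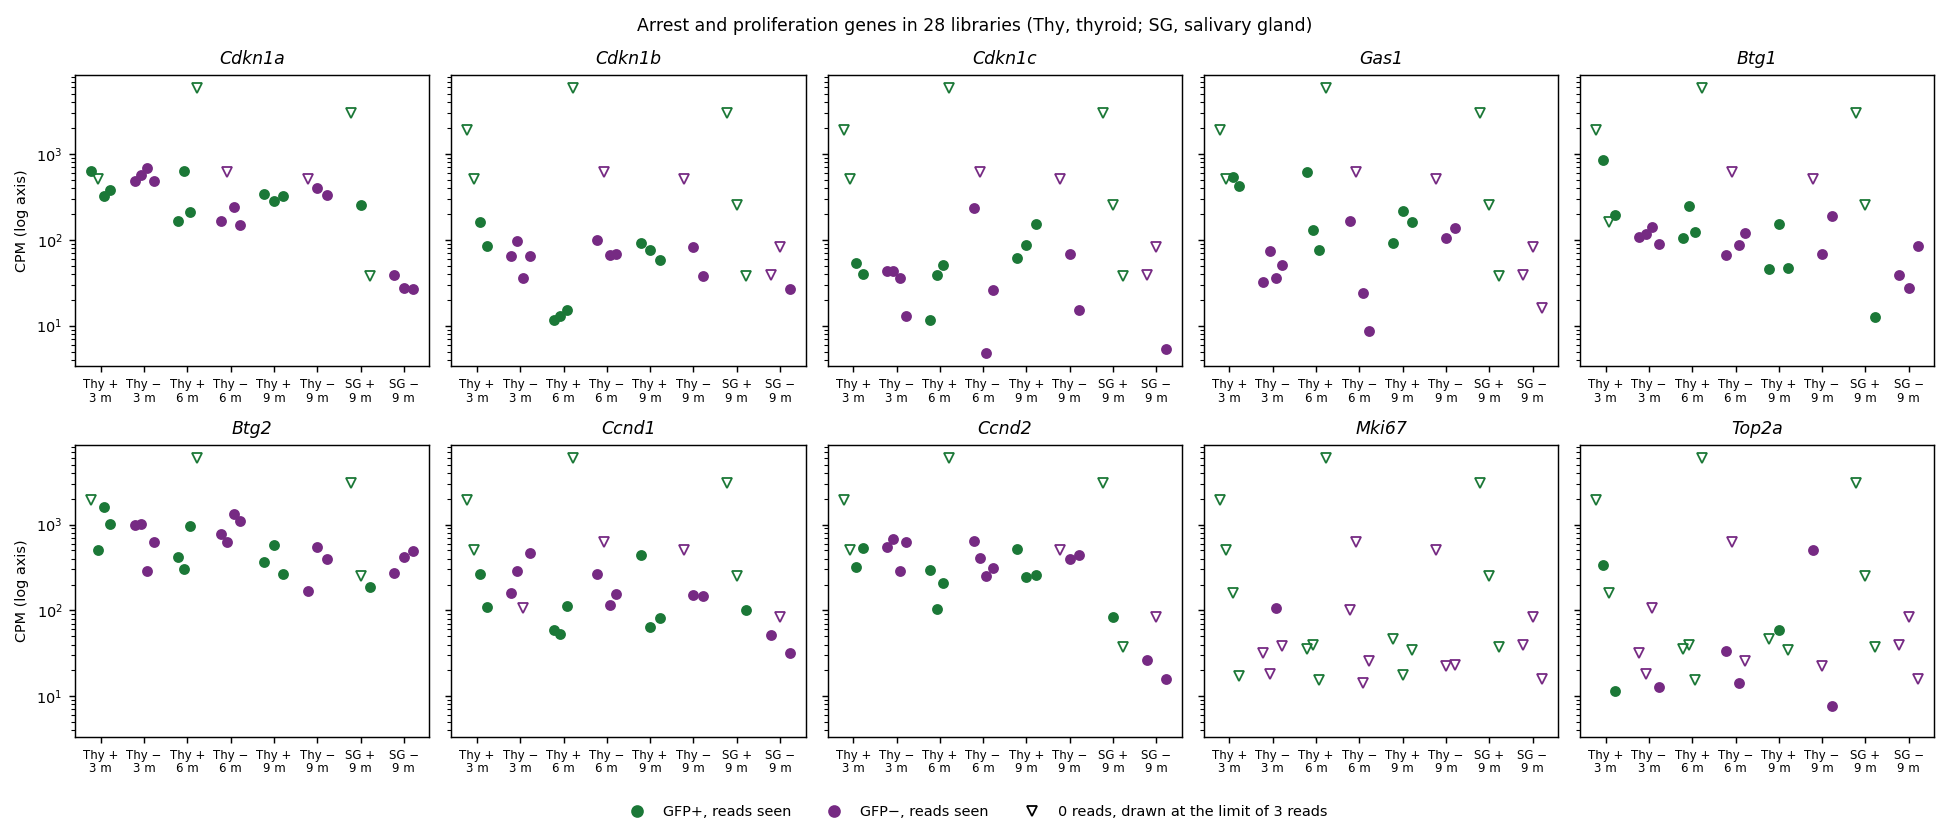
CPM of each of the 10 genes in each of the 28 libraries on a log axis, by gland, GFP fraction and age in months; filled points are libraries with reads and open triangles are libraries with 0 reads, drawn at the CPM of 3 reads. The filled GFP+ points of Gas1 at 3 months stand above its GFP− points, Mki67 has 1 filled point in all, and Gas1 has none in salivary gland.

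Over the mean of the 3 ages, 1 of the 6 tested members differed between GFP+ and GFP− thyroid cells, Gas1, which was higher in GFP+ cells; over all 1900 genes tested, 20.2% were called at an adjusted p below 0.05, 11.4% as higher. Gas1 passed the filter on low counts through its GFP+ libraries, since too few GFP− libraries reached the level the filter asks for. Its call was therefore not independent of the filter. Both D cyclins, Btg2 and Cdkn1a had fitted values below 0, and none of them passed the test. The median log2 fold change of the 6 tested members was −0.40, beside −0.08 for all genes tested. At 3 months 1 of 6 members was called (background 9.68%), at 6 months 1 of 6 (background 7.11%) and at 9 months 0 of 6 (background 1.89%); the call at 3 and at 6 months was again Gas1. At 9 months 0 of the 6 had an unadjusted p below 0.05 in edgeR and DESeq2 called 0.

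**Figure D2:**
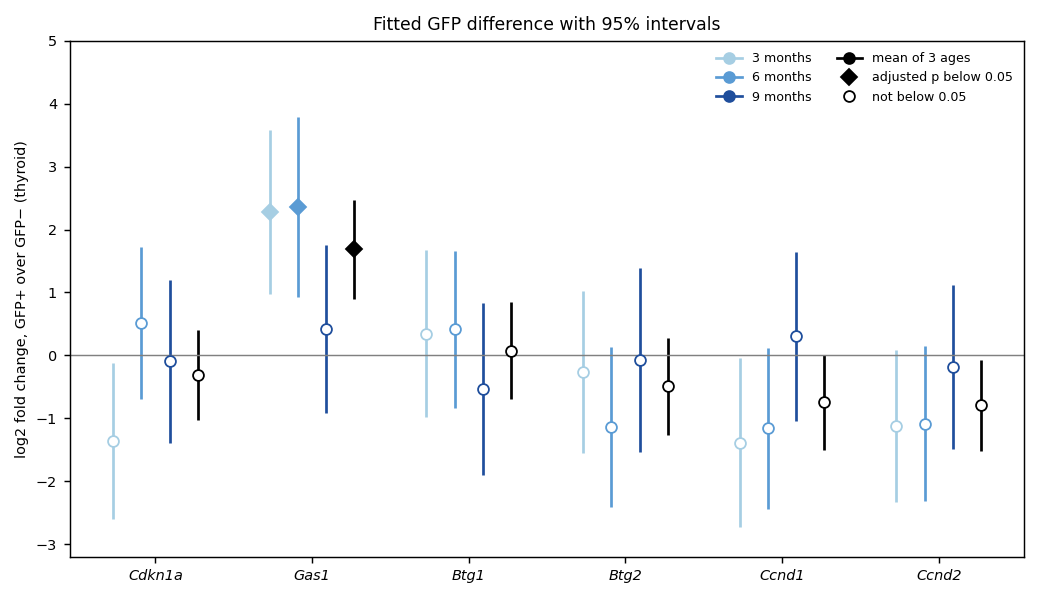
Fitted log2 fold change of GFP+ over GFP− thyroid cells (y axis) for the 6 tested genes at each age and as the mean of the ages, with 95% intervals from edgeR's quasi-likelihood fit; filled diamonds mark an adjusted p below 0.05 over all 1900 genes. Gas1 carries the 3 filled diamonds, and at 9 months every interval crosses 0.

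Gas1 had 0, 0, 537 and 429 CPM in the 4 GFP+ libraries at 3 months, against 32.2, 73.4, 35.8 and 51.3 CPM in the GFP− libraries. Both GFP+ libraries at 0 were shallow, with limits of 1921 and 509 CPM, and the other pair lay above every GFP− library. At 6 months Gas1 had 611, 131, 76.7 and 0 CPM in GFP+ libraries, the last with 507 reads in all, against 168, 0, 23.9 and 8.66 CPM in GFP− libraries. Here the groups overlapped, since GFP− replicate 1 (5 reads of Gas1) exceeded a pair of deep GFP+ libraries. At 9 months Gas1 had 92.1, 217 and 163 CPM in GFP+ libraries, against 0, 106 and 138 CPM in GFP− libraries, and the groups overlapped again.

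The fitted log2 fold change of Gas1 was 1.69 over the mean of ages (SE 0.40, 95% interval 0.90 to 2.47, edgeR adjusted p = 0.000308, n = 11 libraries per fraction). By age it was 2.28 at 3 months (SE 0.66, adjusted p = 0.0109), 2.36 at 6 months (SE 0.73, adjusted p = 0.0218) and 0.42 at 9 months (SE 0.68, adjusted p = 0.989). The difference between ages did not itself pass the test (interaction, unadjusted p = 0.0776, adjusted p = 1; background 0.158%), so the smaller value at 9 months is not shown to differ from the others. Summed over libraries, GFP+ cells held 219 Gas1 reads (249 CPM) and GFP− cells 63 (63.6 CPM), a ratio of 3.91 with a counting interval of 2.95 to 5.27. Leaving out any 1 library kept the call over the mean of ages (1.28 to 1.95, adjusted p 5.16e-05 to 0.0161), and a block on replicate numbers ended it (1.34, adjusted p = 0.0768).

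The calls at single ages rested on single libraries. At 3 months the adjusted p was 0.167 without GFP+ 3 months replicate 4 (log2 fold change 1.66), 0.0654 without GFP− 3 months replicate 1, 0.0505 without GFP− 3 months replicate 4, 0.0512 without GFP− 9 months replicate 2, 0.0607 without GFP− 9 months replicate 3 and 0.0512 without GFP+ 9 months replicate 2. At 6 months it was 0.657 without GFP+ 6 months replicate 1 (1.13), 0.197 without GFP− 6 months replicate 3, 0.246 without GFP− 6 months replicate 4, 0.0579 without GFP− 9 months replicate 2, 0.05001 without GFP− 9 months replicate 3, and 0.0627 without GFP+ 9 months replicate 2. Without GFP− 6 months replicate 1 the value at 6 months was 3.33 and stayed called. DESeq2 did not call Gas1 at 3 or at 6 months (adjusted p = 0.130 and 0.171) and called it over the mean of ages (adjusted p = 0.0148).

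Fibroblast transcripts differed between the fractions as well. All 12 of 12 fibroblast markers were called higher in GFP+ thyroid over the mean of ages, and pooling gave a summed level of 18592 CPM for GFP+ libraries, against 4143 CPM for GFP− libraries. In the 17 thyroid libraries with at least 10000 reads, the sum ran from 11559 to 23058 CPM in GFP+ libraries, against 1216 to 11106 CPM in GFP− libraries, with no overlap. In these libraries Gas1 averaged 282 ± 212 CPM over 8 GFP+ libraries, against 70.7 ± 55.1 CPM over 9 GFP− libraries (SD), a difference of 211 CPM (exact two-sided permutation test, p = 0.00535). Counted per 1000 fibroblast marker reads, a scale chosen after seeing the data, Gas1 averaged 14.2 ± 10.1 in GFP+ and 19.6 ± 9.88 in GFP− libraries, a difference of −5.40 (exact two-sided permutation test, p = 0.281). With reads pooled over all thyroid libraries it was 13.4 in GFP+ and 15.4 in GFP− cells. Both permutation tests ignored age, and the deep libraries of the fractions were spread unevenly over the ages. The part of age in both differences was not tested. By age, the pooled fibroblast sum was 18736, 16360 and 20984 CPM in GFP+ cells and 2318, 2032 and 9427 CPM in GFP− cells at 3, 6 and 9 months. Of 9 pericyte and smooth muscle markers 5 were tested and 3 called higher in GFP+ thyroid over the mean of ages, with pooled sums of 2288, 1349 and 638 CPM in GFP+ cells and 334, 245 and 729 CPM in GFP− cells at 3, 6 and 9 months. The part of either cell type in the Gas1 difference was not tested.

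**Figure D3:**
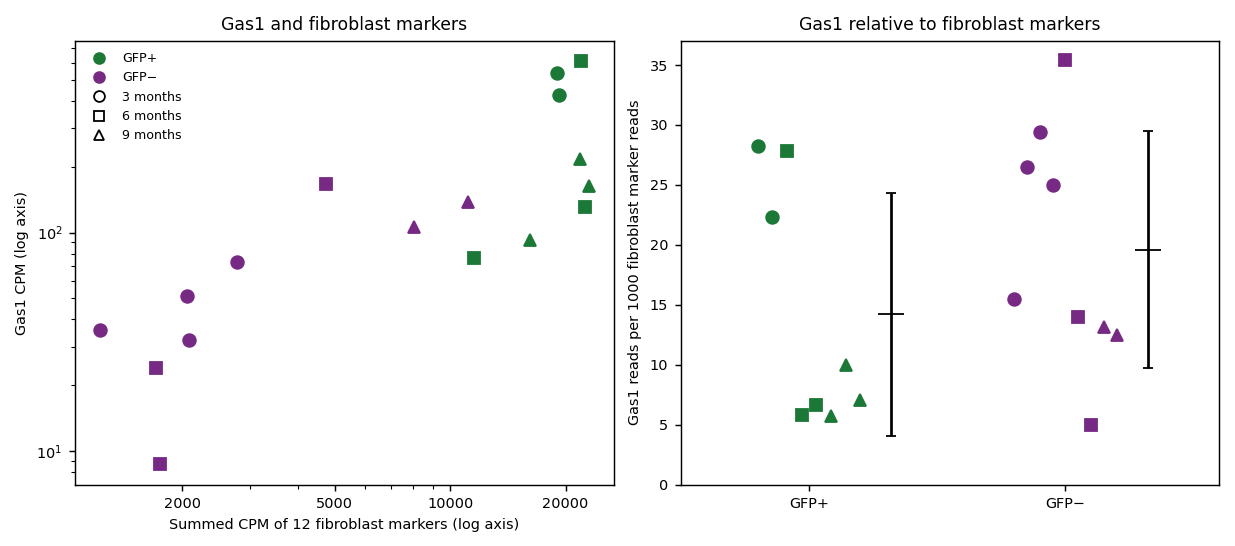
Left, Gas1 CPM against the summed CPM of 12 fibroblast markers in the 17 thyroid libraries with at least 10000 reads, both on log axes; right, Gas1 reads per 1000 fibroblast marker reads in the same libraries, with mean and SD as bars. The GFP+ libraries lie to the right of the GFP− libraries in the left panel, and the fractions overlap in the right panel (14.2 ± 10.1 and 19.6 ± 9.88).

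Cdkn1a, the p53-inducible inhibitor p21, was read in 22 of the 28 libraries. At 3 months it had 640, 0, 322 and 377 CPM in GFP+ libraries, the first of them from 1 read, against 482, 569, 679 and 487 CPM in GFP− libraries. The deep GFP+ libraries lay below all GFP− libraries, and the fitted log2 fold change of −1.36 (SE 0.63) did not pass the test over all genes (edgeR adjusted p = 0.175). At 6 months it had 165, 642, 210 and 0 CPM in GFP+ libraries, against 168, 0, 239 and 147 CPM in GFP− libraries, with the groups overlapping (0.52, adjusted p = 0.797). At 9 months it had 338, 282 and 326 CPM in GFP+ libraries, against 0, 400 and 330 CPM in GFP− libraries (−0.10, adjusted p = 0.996). Over the mean of ages the value was −0.31 with a 95% interval of −1.03 to 0.41 (adjusted p = 0.679).

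Cdkn1b, p27, the inhibitor best known from resting cells, was too sparse for the test. It had 47 reads in GFP+ and 69 in GFP− thyroid cells, 53.4 and 69.6 CPM pooled, a ratio of 0.77 with a counting interval of 0.52 to 1.13. Its lowest thyroid level was in GFP+ cells at 6 months, where the libraries had 11.8, 13.1, 15.3 and 0 CPM (5 reads in all), against 101, 0, 67.0 and 69.3 CPM in GFP− libraries (25 reads). Apart from the 0 of the shallow GFP− replicate 2, every GFP− library lay above every GFP+ library, and the pooled ratio was 0.20 (counting interval 0.06 to 0.53). Fitted without a filter on low counts, this difference had an edgeR adjusted p of 0.562. At 3 and 9 months the pooled levels were 89.5 and 74.7 CPM in GFP+ cells, against 77.2 and 59.5 CPM in GFP− cells.

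Cdkn1c, p57, had 54 reads in GFP+ and 35 in GFP− thyroid cells (61.4 and 35.3 CPM pooled; ratio 1.74, counting interval 1.11 to 2.74). The excess lay at 9 months, with 61.4, 88.1 and 151 CPM in GFP+ libraries, against 0, 67.9 and 15.4 CPM in GFP− libraries. One GFP− library exceeded the lowest GFP+ library, so the groups overlapped, and the pooled ratio of 2.43 (counting interval 1.19 to 5.35) had an edgeR adjusted p of 0.760 when fitted without a filter. At 3 and 6 months the pooled levels were 39.8 and 39.2 CPM in GFP+ cells, against 35.8 and 30.6 CPM in GFP− cells. The counting intervals cover counting error only, and reads without molecular identifiers are not independent molecules.

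Btg2 gave the most reads of the 10 members, 1612 in 24 libraries. At 3 months it had 0, 509, 1610 and 1006 CPM in GFP+ libraries, against 986, 1009, 286 and 628 CPM in GFP− libraries. At 6 months it had 423, 301.4, 951 and 0 CPM in GFP+ libraries, against 771, 619, 1325 and 1109 CPM in GFP− libraries, with 1 GFP+ library inside the GFP− range. At 9 months it had 369, 576 and 267 CPM in GFP+ libraries, against 170, 543 and 392 CPM in GFP− libraries. The fitted log2 fold changes were −0.27, −1.14 and −0.07 at 3, 6 and 9 months (edgeR adjusted p = 0.883, 0.376 and 0.997) and −0.49 over the mean of ages (95% interval −1.27 to 0.28, adjusted p = 0.473). The value at 3 months was 0.34 when libraries under 10000 reads were left out, and the sign at 9 months differed between alternative fits.

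Btg1, the close relative of Btg2, had 124 reads in GFP+ and 108 in GFP− thyroid cells (141 and 109 CPM pooled). Its levels were 0 to 848 CPM in GFP+ and 89.7 to 143 CPM in GFP− libraries at 3 months, where the value of 848 CPM came from 5 reads. They were 0 to 249 CPM in GFP+ and 0 to 121 CPM in GFP− libraries at 6 months, and 46.1 to 153 CPM in GFP+ and 0 to 192 CPM in GFP− libraries at 9 months. Over the mean of ages the log2 fold change was 0.07 (95% interval −0.69 to 0.84, edgeR adjusted p = 0.952), and leaving out single libraries moved it from −0.24 to 0.39.

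The D cyclins had fitted values below 0 in GFP+ thyroid cells over the mean of ages. Ccnd2, the D cyclin with more reads, had 0, 0, 322 and 532 CPM in GFP+ libraries at 3 months, against 547, 679, 286 and 628 CPM in GFP− libraries. At 6 months it had 293.9, 105, 210 and 0 CPM in GFP+ libraries, against 637, 413, 249 and 311.9 CPM in GFP− libraries, and 1 GFP+ library exceeded the lowest GFP− library. At 9 months it had 522, 247 and 256 CPM in GFP+ libraries, against 0, 392 and 438 CPM in GFP− libraries. The log2 fold change over the mean of ages was −0.80 (SE 0.37, 95% interval −1.52 to −0.08; unadjusted p = 0.0302, edgeR adjusted p = 0.120), and −1.12, −1.09 and −0.18 at 3, 6 and 9 months. Ccnd2 was called without GFP+ 3 months replicate 4 (−1.22, adjusted p = 0.0187 over the mean of ages, and −2.40, adjusted p = 0.0479 at 3 months) and under a stricter filter on low counts (−0.77, adjusted p = 0.0240).

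Ccnd1 had 0, 0, 268 and 109 CPM in GFP+ libraries at 3 months, against 161, 287, 0 and 461 CPM in GFP− libraries. At 6 months it had 58.8, 52.4, 113 and 0 CPM in GFP+ libraries, against 268, 0, 115 and 156 CPM in GFP− libraries. The deep libraries of both fractions did not overlap at 6 months, though they came as close as 113 and 115 CPM. At 9 months it had 445, 64.6 and 81.4 CPM in GFP+ libraries, against 0, 151 and 146 CPM in GFP− libraries, so that replicate 1 stood above and the other pair of GFP+ libraries below the deep GFP− libraries. The log2 fold change was −0.75 over the mean of ages (95% interval −1.51 to 0.01, edgeR adjusted p = 0.186) and −1.38, −1.16 and 0.30 at 3, 6 and 9 months. Without GFP+ 9 months replicate 1 it was −1.17 over the mean of ages (adjusted p = 0.0489). The antisense neighbour of Ccnd1, LTO1, had 17 reads in all, and whether counting used strand is not given in the sources used here.

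Endothelial transcripts were lower in the same GFP+ cells: 9 of 10 tested markers were called lower over the mean of ages, and all 12 together had 575 CPM in pooled GFP+ libraries, against 5071 CPM in pooled GFP− libraries. Per library the sum was 169.6 to 2561, 0 to 760 and 256 to 445 CPM in GFP+ cells at 3, 6 and 9 months, against 5436 to 9062, 2066 to 5263 and 3195 to 4019 CPM in GFP− cells. Markers of other cell types of the region were called lower as well, 3 of 5 tested follicular, 3 of 3 C cell, 3 of 3 parathyroid and 4 of 4 red cell markers. Pooled, follicular markers had 2194 CPM in GFP+ and 5599 CPM in GFP− thyroid, C cell markers 7676 and 15466 CPM, parathyroid markers 21336 and 35021 CPM, and red cell markers 1025 and 5693 CPM. Their part in the values of the D cyclins, Btg2 and Cdkn1a was not tested. Immediate early genes, which tissue dissociation is known to induce, totalled 12679 CPM in GFP+ thyroid, against 13452 CPM in GFP− thyroid, with 1 of 13 tested called, Ier2, at a log2 fold change of −1.06 (edgeR adjusted p = 0.0288).

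Mki67 was read in 1 of 28 libraries, GFP− thyroid at 3 months replicate 3, with 3 reads or 107 CPM. GFP+ thyroid cells had 0 reads of Mki67 among 879797, which allows up to 3.41 CPM, against 3 reads among 990686 in GFP− thyroid cells, or 3.03 CPM with a counting interval of 0.62 to 8.85. The fractions could not be told apart at this depth. Salivary libraries had 0 reads among 393349, which allows up to 7.63 CPM.

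Top2a had 14 reads in GFP+ and 9 in GFP− thyroid cells (15.9 and 9.08 CPM pooled), and 0 in salivary gland. Of the 14, 10 came from GFP+ thyroid at 9 months replicate 2 (58.7 CPM), 2 from GFP+ at 3 months replicate 2 (339 CPM) and 2 from GFP+ at 3 months replicate 4 (11.4 CPM). In GFP− cells 3 reads came from replicate 1 at 9 months, a library of 5884 reads, which sets it at 510 CPM. Fitted without a filter, Top2a had a log2 fold change of −0.41 over the mean of ages, the opposite sign to the pooled levels (edgeR adjusted p = 0.9998).

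Other genes of division were as sparse. The 20 S phase genes, which license and copy DNA, had 156 reads in GFP+ and 164 in GFP− thyroid cells (177 and 166 CPM), and the 24 G2 and mitosis genes had 46 and 22 reads (52.3 and 22.2 CPM). None of these 44 genes had reads enough for the test, and Cdk1, Ccnb1, Ccnb2, Aurka, Aurkb, Foxm1, Rrm2 and Cdc45 had 0 reads in all 28 libraries. The S phase genes with most reads were Pcna, the polymerase clamp, with 23 reads in GFP+ and 35 in GFP− thyroid cells, and Mcm4, a helicase subunit, with 35 and 22. Among mitosis genes they were Cenpf, a kinetochore protein, with 6 and 5, and Nusap1, a spindle protein, with 6 and 2.

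Of the 46 mitosis reads in GFP+ thyroid cells, 33 lay at 9 months, and they were spread unevenly over its 3 libraries. Replicate 1 had 23 reads of 9 genes (353 CPM), among them 7 of Cenpe, a kinetochore motor, and 5 of Prc1, which bundles the central spindle, a pair named after their values were seen. Replicate 2 had 10 reads of 8 genes (58.7 CPM) beside its 10 Top2a reads, and replicate 3 had 0. The pooled level of the list in GFP+ cells at 9 months was 103 CPM, against 14.9 CPM in GFP− cells, and it was 39.0 CPM without replicate 1 and 152 CPM without replicate 2. Cenpe had 0 reads in the other 25 libraries. The salivary acinar and duct list includes the epithelial keratins Krt7 and Krt19. Its sum was also uneven over these 3 libraries, at 906, 188 and 11.6 CPM. Most of its reads in this group came from Ltf (45), Aqp5 (27) and Krt7 (17). Smgc, Dcpp1, Dcpp2, Dcpp3, Prol1, Pip, Klk1 and Klk1b22, all of that list, had 0 reads there. The part of the listed genes in the mitosis reads was not tested.

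**Figure D4:**
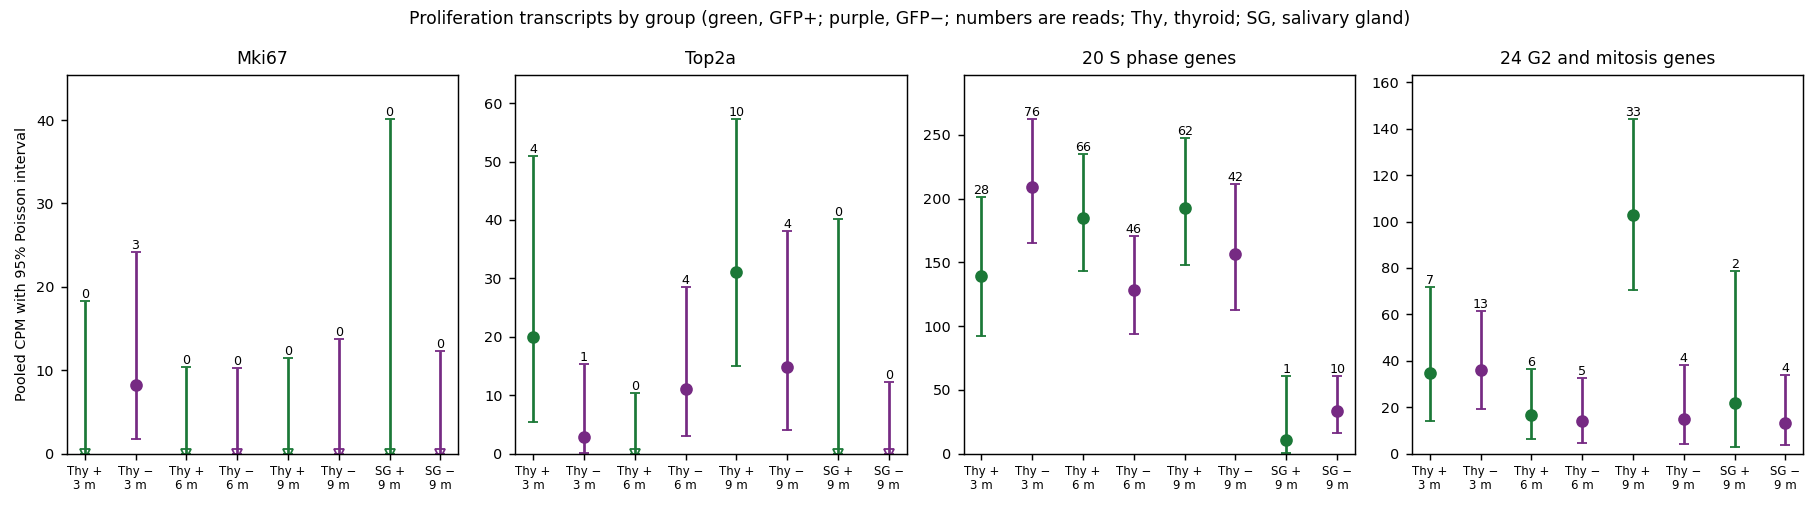
Pooled CPM of Mki67, Top2a, 20 S phase genes and 24 G2 and mitosis genes in each group, with exact 95% Poisson intervals and the number of reads above each; green is GFP+ and purple GFP−, and open triangles are groups with 0 reads. The mitosis genes peak in GFP+ thyroid at 9 months (33 reads, 103 CPM), while the S phase genes run from 128 to 209 CPM over the 6 thyroid groups.

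Further arrest genes gave no call between the fractions. The 4 INK4 inhibitors, which act on the D cyclin kinases, had 30 reads in GFP+ and 24 in GFP− thyroid cells, led by Cdkn2d with 17 in each fraction and Cdkn2b with 7 and 2, and none was tested. Of 16 further G1 genes 1 was tested, Cdk6, the kinase partner of the D cyclins, at a log2 fold change of −1.11 (edgeR adjusted p = 0.262); Ccnd3, the remaining D cyclin, had 54 reads in GFP+ and 68 in GFP− thyroid cells, and Tfdp2, an E2F partner, 29 and 46. Of 21 BTG/TOB family and antiproliferative genes 8 were tested and 0 were called over the mean of ages, with a median log2 fold change of −0.28; Klf6 and Klf4, transcription factors with growth-restraining roles, had −0.33 and 0.24. Of 16 p53 targets 2 were tested and 0 called, Perp at 0.99 and Gadd45a at 0.71 (adjusted p = 0.253 and 0.268). Among 11 genes that induce D cyclins or relay mitogens, 6 were tested and 3 called: the receptors Pdgfra (2.26) and Fgfr1 (1.52, adjusted p = 0.0014) were higher and the transcription factor Ets1 (−1.57, adjusted p = 0.00341) was lower in GFP+ cells. Pdgfra is also one of the 12 fibroblast markers.

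Age changed none of the 6 members detectably. Within GFP+ thyroid 0 of 6 were called over 3, 6 and 9 months (background 1.58%) and within GFP− thyroid 0 of 6 (background 1.53%), with 0 and 1 at an unadjusted p below 0.05 and 0 called by DESeq2 in both. The one was Cdkn1a in GFP− cells, with pooled levels of 537, 200 and 357 CPM at 3, 6 and 9 months (unadjusted p = 0.0291, edgeR adjusted p = 0.303). The interaction of GFP with age called 0 of 6, with 0 at an unadjusted p below 0.05 and 0 by DESeq2. Pooled Gas1 was 423, 215 and 177 CPM at 3, 6 and 9 months in GFP+ cells, where the SD over libraries was 282, 276 and 62.8 CPM.

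In salivary gland at 9 months 28 member reads were seen in GFP+ and 179 in GFP− cells, and most came from Btg2. Btg2 had 0, 0 and 189 CPM in GFP+ libraries, against 274, 416 and 493 CPM in GFP− libraries, so the groups did not overlap, though the GFP+ libraries at 0 held 993 and 11795 reads. Its log2 fold change was −1.70 (95% interval −3.44 to 0.05, edgeR adjusted p = 0.496), beside a median of −0.90 over all 974 genes tested. Without GFP+ salivary replicate 3 all Btg2 reads of the GFP+ fraction are gone, and the adjusted p was 0.0311. Gas1 passed the filter at 9 months through its thyroid reads alone and had none here. Cdkn1a, Ccnd1 and Ccnd2 passed it through thyroid libraries as well, and only Btg2 had salivary reads enough for it. Of these other 4 members 0 were called between salivary fractions, with 0 at an unadjusted p below 0.05 and 0 by DESeq2. For Cdkn1a, Ccnd1 and Ccnd2 this says little, since they had few reads here. Over all genes edgeR called 0% with 97 genes at an unadjusted p below 0.05, and DESeq2 called 0. The GFP by gland interaction called 0 of these 4 members (0 at an unadjusted p below 0.05, 0 by DESeq2) and 0% of all genes, with 89 at an unadjusted p below 0.05 and 1 by DESeq2.

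Between glands, Gas1 and Ccnd2 were higher in GFP− thyroid cells than in GFP− salivary cells. Gas1 had 0 reads in all 6 salivary libraries. GFP+ thyroid cells at 9 months held 57 Gas1 reads and GFP− thyroid cells 32, which is at least 5.44-fold higher in GFP+ thyroid and at least 11.96-fold higher in GFP− thyroid than the limit of 3 reads over each salivary group. Ccnd2 had 522, 247 and 256 CPM in GFP+ thyroid libraries, against 0, 84.8 and 0 CPM in GFP+ salivary libraries, and 0, 392 and 438 CPM in GFP− thyroid libraries, against 26.1, 0 and 15.9 CPM in GFP− salivary libraries. Among GFP− cells edgeR called 2 of 5 members, Ccnd2 (log2 fold change 2.61, SE 0.91, adjusted p = 0.0360) and Gas1 (adjusted p = 0.0186), with 14.2% of 974 genes called. Gas1 and Ccnd2 passed the filter through their thyroid reads alone, so their tests between glands add nothing to their levels given above. Among GFP+ cells 0 of 5 were called (background 14.6%), with 2 at an unadjusted p below 0.05 and 0 by DESeq2; Ccnd2 had 2.95 (adjusted p = 0.114) and Gas1 an adjusted p of 0.0966.

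The fit rescales each library by TMM factors, which ran from 0.269 to 7.48 in the fit at 9 months and 0.582 to 10.5 in the thyroid fit. Fitted and pooled values therefore differ, between glands and between thyroid fractions. At 3 months the pooled ratio of GFP+ to GFP− thyroid was 0.68 for Cdkn1a, 0.44 for Ccnd1, 0.82 for Ccnd2 and 1.20 for Btg2. The fitted log2 fold changes there were −1.36, −1.38, −1.12 and −0.27. Between glands, pooled CPM of Ccnd2 in GFP− cells differed 24.4-fold (counting interval 10.2 to 76.8). Btg2, with pooled levels of 461 CPM in GFP− thyroid and 428 CPM in GFP− salivary cells, had a fitted log2 fold change of −1.73 (adjusted p = 0.145), which was called under a stricter filter (−1.64, adjusted p = 0.0119). Cdkn1a had 357 CPM pooled in GFP− thyroid and 29.9 CPM in GFP− salivary cells, and a fitted value of 1.56 (adjusted p = 0.234). Both gland calls rested on single libraries: the adjusted p of Ccnd2 was 0.162 and 0.274 without GFP− thyroid replicates 2 and 3, 0.0644, 0.156 and 0.349 without GFP− salivary replicates 1, 2 and 3, 0.0891 and 0.0596 without GFP+ thyroid replicates 2 and 3, and 0.0547 without GFP+ salivary replicate 2. That of Gas1 was 0.0624 and 0.133 without GFP− thyroid replicates 2 and 3, 0.0524, 0.0560 and 0.344 without GFP− salivary replicates 1, 2 and 3, and 0.0601 without GFP+ thyroid replicate 2. Both calls also ended with the replicate block (adjusted p = 0.110 for Ccnd2 and 0.0588 for Gas1) and without a filter (0.403 and 0.219), and DESeq2 did not call Gas1 (0.0650). Fibroblast markers, 267 CPM in pooled salivary libraries, were low there as well, and their part in the gland difference was not tested.

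Across the 17 thyroid libraries with at least 10000 reads, the members did not move as a block. Among their 15 pairs, the Pearson correlation of log2 CPM ran from −0.39 for Cdkn1a with Gas1 to 0.60 for Ccnd1 with Ccnd2, and Gas1 was negatively correlated with each of the other 5 tested members. The libraries share gland and depth differences, so these are descriptions. Among 1868 other genes, those most like Gas1 were Col3a1, a fibrillar collagen (0.85), Ccl11, a chemokine (0.84), and Tgfb2, a growth factor (0.84). Those most like Ccnd2 were Apold1 (0.88), Tmsb4x (0.86) and Rflnb (0.82), and those most like Ccnd1 were Snx3 (0.85), Atp6v1a (0.84) and Atxn7l3b (0.83). Btg2 was most like Prkar1a (0.90), Spint2 (0.85) and Ndufa4 (0.78), Btg1 most like Ik (0.82), Cbx6 (0.82) and Aldoa (0.80), and Luzp1 (0.80) and Scarb1 (0.75) were among those most like Cdkn1a.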

How the data were processed

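Gene counts, 1 deposited table per library, were used as the authors deposited them. Per the labels' protocols, RNA was column-purified with DNase treatment and made into libraries with a 3′ mRNA kit; per the submitters' processing notes, bcl2fastq was used and the build was mm9. The aligner, the counting program and its use of strand are not given in the sources used here. Of 47643 gene identifiers 47224 matched a GENCODE vM21 symbol. Summary rows, among them 13.3 to 85.8% of reads in no feature, stayed out; ribosomal RNA rows (25.1 to 63.8% of reads in genes) stayed in. All 10 members matched.

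Tests used edgeR 4.0.16 (R 4.3.3), TMM factors, filterByExpr (minimum 10, total 15) and robust quasi-likelihood fits, with p-values adjusted over all genes by Benjamini-Hochberg and called at 0.05: 22 thyroid libraries in 6 groups (1900 genes) and 12 libraries at 9 months in 4 groups (974 genes). Mean and SD are of CPM without TMM. Pooled CPM sums reads over a group, with exact 95% Poisson intervals, and pooled ratios have exact binomial intervals. Named were all 10 members, up to 4 called genes per list or the 2 with most reads, and the 3 genes most correlated with each tested member, of which 1 is not reported here, except that cell type markers are given as summed levels, apart from Tg and Pdgfra. No library repeated another of its group (0 of 36 pairs identical); the closest pair, which includes the library of 507 reads, differed beyond sampling noise (chi-square per degree of freedom 1.13, p = 0.000767).

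Alternatives were DESeq2 1.42.0, its size factors, no filter, a filter of 20 reads in 50% of libraries, libraries over 10000 reads, no ribosomal RNA rows, all 28 libraries in 1 fit, the replicate number as a block, and each library left out. The scripts were tested on simulated data, where the fit over the mean of ages recovered 30% of 2-fold and 92% of 4-fold changes. A change of 2-fold or less could therefore often go uncalled. The members and lists were chosen with earlier results of these data known.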

Additional observations from a re-analysis of the deposited data

Results flagged for a closer look

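Of 36 sets of 4 libraries examined (a member in a thyroid group), 5 held a library far from the other 3; chance marks about 1 set in 20 of continuous values, a rate that does not apply to sets with 0 reads in every other library, as for Mki67 and for Top2a in GFP− cells below. All 5 rested on 7 reads or fewer. In GFP− thyroid at 6 months, replicate 1 had 234.7 CPM of Cdkn1c (7 reads), against at most 26.0 CPM in the other libraries, and 167.6 CPM of Gas1 (5 reads), against at most 23.9 CPM. This is the library without which the Gas1 difference at 6 months was 3.33 on the log2 scale. In GFP− thyroid at 3 months, replicate 3 held all 3 reads of Mki67 (107.3 CPM) and replicate 4 the 1 read of Top2a (12.8 CPM). In GFP+ thyroid at 3 months, replicate 2 had 339.2 CPM of Top2a from 2 reads in a library of 5896, against at most 11.4 CPM in the others.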

How the results depend on the processing

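Gas1 stayed higher in GFP+ thyroid over the mean of ages in every setting that tested it, and lost its call with the replicate block; the stricter filter did not test it. The cause of each change below was not tested. Members called were 1 over the mean of ages, 0 with the replicate block, and 1 to 2 when single libraries were left out. At 3 and at 6 months the 1 call became 0 with DESeq2, no filter, the stricter filter and the replicate block, and was 0 to 1 without single libraries. Gas1 at 3 months was 2.11, 2.06 and 1.72 with DESeq2, no filter and the block (adjusted p = 0.130, 0.394 and 0.404), and at 6 months 2.20, 2.42 and 1.65 (0.171, 0.425 and 0.641). Between salivary fractions 0 became 1 without single libraries at most. For GFP− thyroid against salivary gland, 2 calls became 1 with DESeq2, its size factors, the stricter filter, no ribosomal RNA rows and 1 fit of 28 libraries, 0 with no filter and with the block, and 0 to 2 without single libraries. Members failing the filter were 4, 0 without a filter and 7 with the stricter one.

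Signs changed only in values that were not called. The Gas1 differences of 211 CPM and of −5.40 per 1000 fibroblast marker reads are unlike measures, so their opposite signs are not counted here. Btg2 at 3 months was 0.10 with the stricter filter and 0.34 without libraries under 10000 reads. At 9 months Cdkn1a was 0.026 with DESeq2, 0.054 without a filter and 0.19 with the block, Btg2 was 0.032, 0.096 and 0.099 there and 0.023 in 1 fit of 28 libraries, and Ccnd1 was −0.30 with the block. Without single libraries Btg1 ran from −0.24 to 0.39 over the mean of ages, −0.063 to 0.65 at 3 months and −1.43 to 0.54 at 9 months, Btg2 from −0.75 to 0.0061 at 3 months and −0.39 to 0.38 at 9 months, Cdkn1a from −0.18 to 0.98 at 6 months and −0.38 to 0.30 at 9 months, and at 9 months Ccnd1 from −0.94 to 0.83 and Ccnd2 from −0.50 to 0.25.

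Over all genes, 383 were called for the mean of ages, 188 with the block and 63 with the stricter filter. At 3 months 184 became 115 with DESeq2, 22 without a filter, 45 with the block and 43 with the stricter filter; at 6 months 135 became 70, 10, 11 and 25, and 234 without libraries under 10000 reads. For GFP− thyroid against salivary gland 138 became 50 without a filter, 72 with the block, 21 with the stricter filter and 208 without libraries under 10000 reads. The median of all genes at 3 months was −0.26, and −0.44 without ribosomal RNA rows. Between GFP+ and GFP− libraries of the same number, 3 of 11 thyroid pairs had residual correlations above 0.1 (−0.0892 to 0.351). In salivary gland 2 of 3 such pairs did, against 0 of 20 pairs of ages and 0 of 6 pairs of glands. The highest value, 0.351, came from replicate 3 at 6 months, with 195513 and 209091 reads. These values leave pairing of the fractions undecided, since the 0.1 limit was not tested and some pairs include a library under 10000 reads. Mki67 had 3 reads and Top2a 23 reads over all libraries, and the parts of depth and of low expression in these counts were not tested.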

Other observations

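Perp, a p53 target and component of epithelial junctions, had 0, 0, 0 and 57.2 CPM at 3 months, 11.8, 0, 35.8 and 0 CPM at 6 months and 968, 112 and 23.3 CPM at 9 months in GFP+ thyroid libraries. Its change with age in GFP+ cells was called (edgeR adjusted p = 8.92e-05 over 3 ages) and rested on replicate 1 at 9 months, which held 63 of the 84 reads of that group. Without that library the adjusted p was 0.998; it was 0.210 with the replicate block, 0.527 without libraries under 10000 reads and 0.927 in DESeq2. This is also the library with the highest level of the salivary acinar and duct list among the 3, at 906 CPM. Smgc, Prol1 and Klk1 of that list had 0 reads in GFP+ thyroid at 9 months. In GFP− cells Perp had 5, 8 and 13 reads at 3, 6 and 9 months (adjusted p = 0.676), and the difference between fractions in this change did not pass the test (interaction, unadjusted p = 0.102, adjusted p = 1).

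Pdcd4, a translation inhibitor that restrains growth, had 0, 106 and 230.4 CPM in GFP− thyroid libraries at 9 months, against 169.7, 194 and 312.7 CPM in GFP− salivary libraries, or 164 and 262 CPM pooled, and the groups overlapped. The TMM-scaled log2 fold change was −2.35 (edgeR adjusted p = 0.0166; 14.2% of all genes were called). Pdcd4 passed the filter on low counts through salivary libraries, since too few thyroid libraries reached the level it asks for. The adjusted p was 0.0609 with the replicate block and 0.676 without a filter. Without single libraries it was 0.244 and 0.0708 for GFP− thyroid replicates 2 and 3, 0.0599 and 0.264 for GFP− salivary replicates 1 and 3, and 0.0726 for GFP+ thyroid replicate 2.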
